A study of Saccharomyces cerevisiae with 12 samples.

Results

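The genes of sulfur and methionine metabolism were examined in 3′ READS profiles of rpb4Δ and ubp8Δ strains of the budding yeast Saccharomyces cerevisiae. The set holds every ORF named MET or CYS with a number, together with SUL1, SUL2, SAM1, SAM2, SAM3, STR2, STR3, MUP1, MUP3, MMP1, MHT1, ECM17 and CBF1. This gave 34 of the 5798 ORFs in the profiles, with MET5 and ECM17 being names of the same gene. The names follow mutant phenotypes, so some members act beside the pathway: MET18, for example, encodes a factor that assembles iron-sulfur clusters into cytosolic and nuclear proteins.

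Yeast imports sulfate, activates it with ATP, reduces it to sulfide and joins the sulfide to a carbon chain to form homocysteine, which is methylated to methionine or passed on to cysteine by transsulfuration. Methionine is also taken up from the medium and is converted to S-adenosylmethionine, the methyl donor of the cell. The activator Met4 has no strong DNA binding of its own and is brought to these genes by Cbf1, Met28, Met31 and Met32, while the F-box protein Met30 directs its ubiquitination. In media with ample methionine most of the biosynthetic genes are kept at low levels.

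Rpb4 belongs to RNA polymerase II (Pol II), and Ubp8 removes ubiquitin from histones within the SAGA coactivator complex. In the rpb4Δ strain HIS3 replaces RPB4 (RPB4::HIS3), and in the ubp8Δ strain HIS3 replaces UBP8 (UBP8::HIS3). Both strains also carry a 3xFLAG tag on the Pol II subunit Rpb3 with the NAT marker (RPB3::RPB3-3xFLAG NAT), and both were cultured to mid-log phase in YPD, a rich medium, at 30 °C. The authors pooled 2 biological replicates per strain into 1 profile. Neither strain is wild type, so each difference below is between these 2 deletions, and with 1 profile per strain it has no replicate error.

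3′ READS sequences the 3′ ends of polyadenylated RNA, and the profiles cover each nucleotide from 1 to 400 past the stop codon, here called the window, in RPM, reads scaled by the authors to a common library size. A single read was worth 0.395 RPM in rpb4Δ and 0.0614 RPM in ubp8Δ. The windows of the 34 genes held 9831 reads in rpb4Δ and 44584 in ubp8Δ, of 1977159 in rpb4Δ and 13034192 in ubp8Δ over the windows of all ORFs, so the ubp8Δ windows held 6.59 times as many reads (6.43 times for the libraries as a whole). The libraries were made by PCR and no molecular identifiers are stated, so the 95% intervals given here (exact, Clopper-Pearson) cover counting error only. The strain labels were checked at the deleted ORFs. That of RPB4 had 0 reads in rpb4Δ and 244 in ubp8Δ, and that of UBP8 had 12 in rpb4Δ and 0 in ubp8Δ. The windows past the deleted ORFs still had signal, at 76 reads (30.1 RPM) for RPB4 in rpb4Δ and 150 (9.20 RPM) for UBP8 in ubp8Δ. With 0 reads, levels of up to 1.19 RPM in rpb4Δ and 0.184 RPM in ubp8Δ remain possible (3 reads).

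Given at least 20 window reads in each strain, several genes for uptake, sulfate reduction and regulation had more signal in rpb4Δ than in ubp8Δ. MET6 and SAM2, which make methionine and S-adenosylmethionine, had less. That minimum was met by 24 of the 34 genes. Of these, 8 were at least 2-fold higher in rpb4Δ, which is 33.3% of the genes against 19.0% of all 4248 ORFs with the same minimum. The genes at least 2-fold lower in rpb4Δ were 2, or 8.33%, against 11.4% of all ORFs. The median log2 ratio, rpb4Δ over ubp8Δ, was 0.66 over the 24 genes, with a range of -1.66 to 3.16, and 0.15 over all ORFs. It was above 0 for 18 of the 24 genes (75% against 56.9% of all ORFs). These shares describe 2 pooled profiles, and the difference from all ORFs was not tested. The minimum removes genes low in rpb4Δ more readily, and some genes under it went the other way. With ORF reads included, MET3, MET5 and MET22 of sulfate assimilation were 2.32-, 5.46- and 3.38-fold lower in rpb4Δ. The uptake gene MUP3 was 8.71-fold lower, while SUL1 was higher on few reads.

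**Figure D1:**
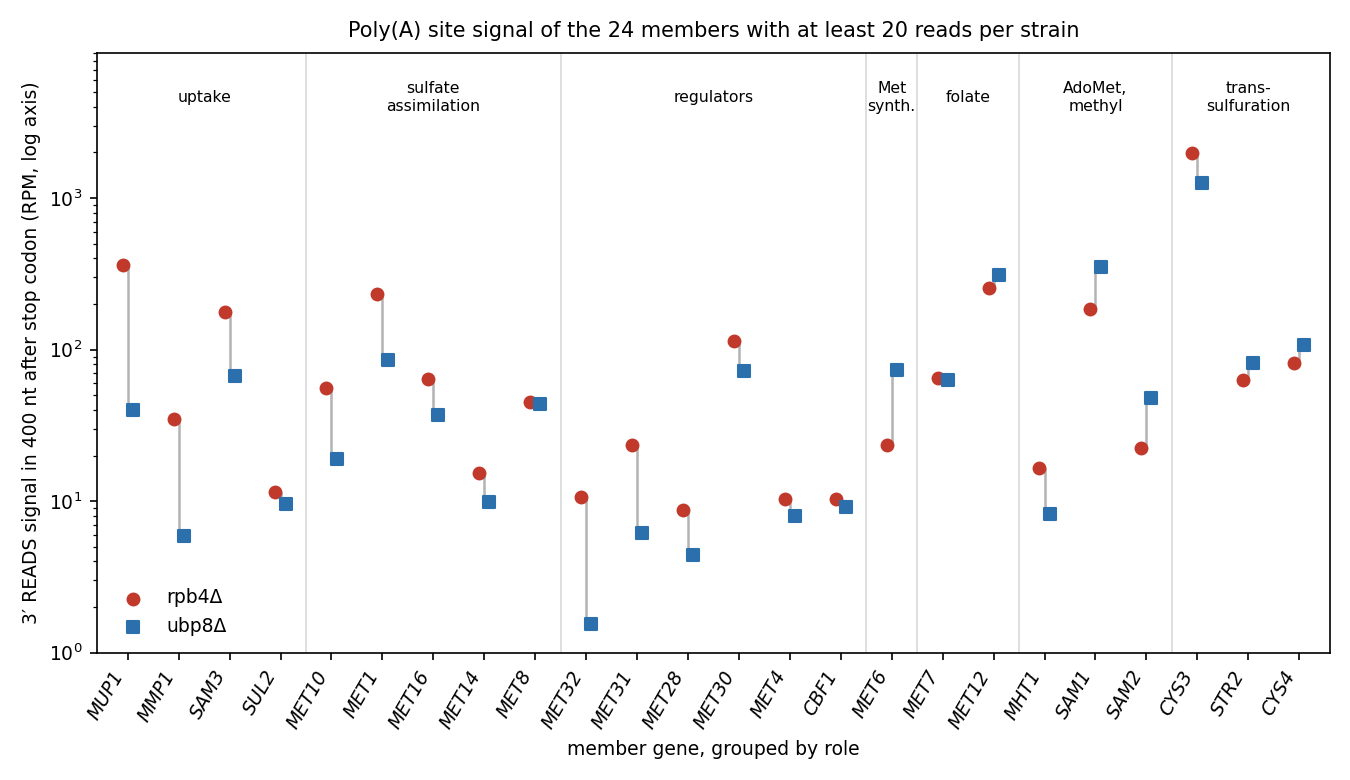
Window signal in RPM (log axis) of the 24 genes with at least 20 window reads in both strains, grouped by role and, within a role, ordered by the ratio of rpb4Δ (circles) over ubp8Δ (squares). MUP1 shows the widest gap, at 359 RPM in rpb4Δ and 40.2 RPM in ubp8Δ, and CYS3 the highest signal, at 1988 RPM in rpb4Δ and 1252 RPM in ubp8Δ.

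Among genes with enough window reads, those for uptake had the highest median ratio of the roles. MUP1, the high-affinity methionine permease, had 359 RPM (909 reads) in rpb4Δ and 40.2 RPM (654 reads) in ubp8Δ, 8.94-fold higher in rpb4Δ (95% interval 8.08 to 9.90). MMP1, the permease for S-methylmethionine, had 34.8 RPM (88 reads) in rpb4Δ and 5.89 RPM (96 reads) in ubp8Δ, a 5.91-fold difference (4.37 to 7.96). Much of its ubp8Δ signal lay in the ORF, and ORF and window together gave 41.1 RPM in rpb4Δ and 17.1 RPM in ubp8Δ, 2.40-fold higher in rpb4Δ. SAM3, the permease for S-adenosylmethionine, had 176 RPM (446 reads) in rpb4Δ and 67.1 RPM (1092 reads) in ubp8Δ, a 2.63-fold difference (2.35 to 2.94). All of these carry organic sulfur compounds. The sulfate transporter SUL2 stayed within 2-fold, with 11.5 RPM in rpb4Δ and 9.52 RPM in ubp8Δ and an interval of the ratio from 0.780 to 1.80. The median log2 ratio of these 4 genes was 1.98. The other uptake genes, SUL1 and MUP3, had too few window reads. With ORF reads included MUP3, also a methionine permease, was 8.71-fold lower in rpb4Δ. It had 1.98 RPM (5 reads) in rpb4Δ and 17.3 RPM (281 reads) in ubp8Δ. SUL1 lay on the higher side, on 6 reads in rpb4Δ and 3 in ubp8Δ.

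The poly(A) sites of the methionine permease are shown because the strains used the same sites in different proportion. MUP1 lies on the plus strand of chromosome VII (chrVII:599417-601141 in R64, the SacCer3 assembly of strain S288C). Each line gives 30 bases of the sense strand from the RefSeq genome, and the capital is the site, the last base before the poly(A) tail that is not an A.
MUP1, site 115 nt after the stop codon (chrVII:601232-601261, plus strand): accaaacctcattataatttctgcCattta
MUP1, site 147 nt after the stop codon (chrVII:601264-601293, plus strand): agtttaagatgctattccgtttcgTatttt
The upstream site held 35.0% of the window signal in rpb4Δ (95% interval 31.9% to 38.2%) and 29.4% in ubp8Δ. The downstream site held 22.9% in rpb4Δ and 42.1% in ubp8Δ (38.2% to 45.9%). Most of the remaining signal lay between 111 and 155 nt in both strains, and the weighted average was 124 nt in rpb4Δ and 132 nt in ubp8Δ.

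Of the sulfate assimilation genes, 2 of the 5 with enough reads were at least 2-fold higher in rpb4Δ and none lower, with a median log2 ratio of 0.80. The others, MET3, MET5 and MET22, fell under the minimum, which removes genes low in rpb4Δ more readily. With ORF and window counted together, all of these were lower in rpb4Δ. MET3 had 28.5 RPM (72 reads) in rpb4Δ and 66.0 RPM (1075 reads) in ubp8Δ, 2.32-fold lower. MET5 was 5.46-fold lower (11 reads in rpb4Δ) and MET22 3.38-fold (8 reads). MET10, a subunit of sulfite reductase, had 56.2 RPM (142 reads) in rpb4Δ and 19.0 RPM (310 reads) in ubp8Δ, 2.95-fold higher in rpb4Δ (2.40 to 3.61). MET1, which acts in making siroheme, the cofactor of sulfite reductase, had 234 RPM (593 reads) in rpb4Δ and 85.0 RPM (1383 reads) in ubp8Δ, a 2.76-fold difference (2.50 to 3.04). MET8, which also acts in siroheme synthesis, was nearly level, with 45.1 RPM in rpb4Δ and 44.0 RPM in ubp8Δ (ratio 1.02, 0.833 to 1.25). MET16, the reductase of activated sulfate, was 1.74-fold higher in rpb4Δ (1.45 to 2.07), and MET14, the kinase before it, 1.56-fold (1.07 to 2.22), both short of 2-fold. With ORF reads included MET14 turned to the other side, with 15.8 RPM in rpb4Δ and 16.7 RPM in ubp8Δ (ratio 0.946).

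Of the 6 regulators, MET31 and MET32 were at least 2-fold higher in rpb4Δ and none lower. Their window log2 ratios were 0.17 to 2.79 with a median of 0.82. All except MET30 had few reads in rpb4Δ, and with ORF reads included the ratio of MET4 was below 1 (0.930). MET32, a zinc-finger protein that recruits Met4, had 10.7 RPM in rpb4Δ and 1.54 RPM in ubp8Δ, 6.94-fold higher in rpb4Δ (3.88 to 12.5), with 27 reads in rpb4Δ and 25 in ubp8Δ. With ORF reads included it was 4.34-fold higher. All 25 reads in ubp8Δ ended at the same nucleotide, 80 nt after the stop codon, which in rpb4Δ had 12 of the 27. Its relative MET31 had 23.3 RPM (59 reads) in rpb4Δ and 6.20 RPM (101 reads) in ubp8Δ, a 3.76-fold difference (2.68 to 5.23). MET28, a leucine-zipper cofactor, was 1.97-fold higher in rpb4Δ with 22 reads in rpb4Δ and 72 in ubp8Δ and an interval of 1.16 to 3.21. MET30, the F-box protein, had 115 RPM in rpb4Δ and 72.1 RPM in ubp8Δ, 1.59-fold higher in rpb4Δ (1.39 to 1.81). For MET4 and CBF1 the interval of the ratio included 1, at 0.810 to 1.97 for MET4 and 0.710 to 1.71 for CBF1.

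Transsulfuration genes stayed within 2-fold. CYS3, the cystathionine γ-lyase that makes cysteine, gave the strongest signal of the set, with 1988 RPM (5028 reads) in rpb4Δ and 1252 RPM (20389 reads) in ubp8Δ, 1.59-fold higher in rpb4Δ (1.54 to 1.64). CYS4, the cystathionine β-synthase of the preceding step, went the other way, with 81.5 RPM in rpb4Δ and 107 RPM in ubp8Δ (ratio 0.760, 0.654 to 0.878). STR2, which acts in the reverse direction from cysteine towards homocysteine, had 62.9 RPM in rpb4Δ and 82.1 RPM in ubp8Δ (ratio 0.766, 0.646 to 0.903).

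Of the genes that form methionine and S-adenosylmethionine, MET6 and SAM2 were at least 2-fold lower in rpb4Δ and MHT1 was at least 2-fold higher. MET6, the methionine synthase, had 23.3 RPM (59 reads) in rpb4Δ and 73.5 RPM (1197 reads) in ubp8Δ, 3.15-fold lower in rpb4Δ (2.43 to 4.17). SAM2, a synthetase of S-adenosylmethionine, had 22.6 RPM (57 reads) in rpb4Δ and 47.7 RPM (777 reads) in ubp8Δ, 2.12-fold lower in rpb4Δ (1.62 to 2.82), and 3.95-fold lower with ORF reads included. Its paralog SAM1 had 185 RPM (467 reads) in rpb4Δ and 353 RPM (5740 reads) in ubp8Δ, 1.91-fold lower in rpb4Δ (1.74 to 2.10) and thus just short of 2-fold. The ORFs of the SAM genes are 1149 and 1155 nt long with 83.2% identical aligned bases and share 104 sequences of the 17 bases used for alignment, but their windows share 0, so the window values of the pair can be told apart. MHT1, the methyltransferase that makes methionine from homocysteine and S-methylmethionine, was on the other side, with 16.6 RPM (42 reads) in rpb4Δ and 8.28 RPM (135 reads) in ubp8Δ, 2.01-fold higher in rpb4Δ (1.38 to 2.85).

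Folate genes supply the methyl group of methionine. MET12, a methylenetetrahydrofolate reductase, had the third strongest signal in ubp8Δ of the set, with 254 RPM in rpb4Δ and 310 RPM in ubp8Δ (ratio 0.819, 0.753 to 0.889). MET7, which adds glutamates to folates, had 65.2 RPM in rpb4Δ and 63.5 RPM in ubp8Δ (ratio 1.03, 0.867 to 1.21, and 0.840 with ORF reads included). MET13, the other reductase, had 0 window reads in rpb4Δ and 94 (5.75 RPM) in ubp8Δ. Against the limit of 1.19 RPM set for 0 reads, it was 4.85-fold lower in rpb4Δ, and the 95% interval of the ratio begins at 3.88-fold lower. Its ORF had 1 read in rpb4Δ and 194 in ubp8Δ.

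**Figure D2:**
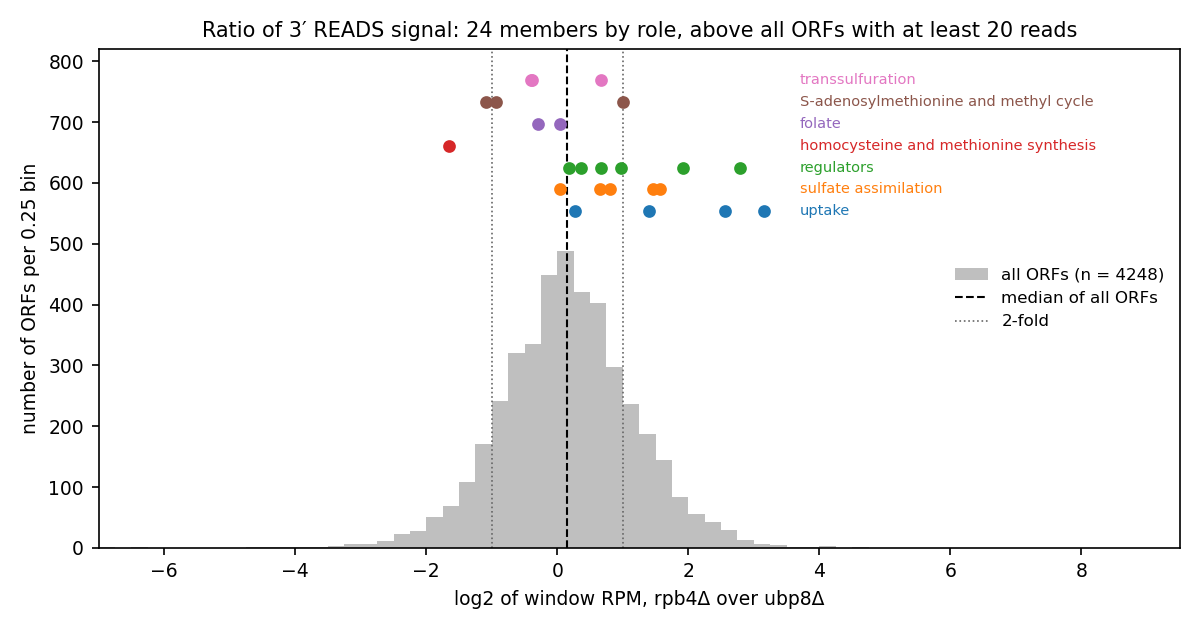
Number of ORFs by log2 ratio of window RPM, rpb4Δ over ubp8Δ (grey, the 4248 ORFs that had 20 or more window reads in each strain), with the 24 sulfur and methionine genes as points by role above it. Uptake genes reach 3.16, regulators 2.79 and MET6, the point of methionine synthesis, lies at -1.66, while the median of all ORFs (dashed) is 0.15.

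The other genes had under 20 window reads in a strain. MET22, the phosphatase that removes a by-product of sulfate reduction, had 5 reads in rpb4Δ and 125 in ubp8Δ. MET18 had 7 reads in rpb4Δ and 57 in ubp8Δ. MET3, the ATP sulfurylase, had 1 in rpb4Δ and 42 in ubp8Δ, and MET2, which acetylates homoserine, had 0 in rpb4Δ and 20 in ubp8Δ. Scaled to library size these values were lower in rpb4Δ, for MET18 at a log2 ratio of -0.34. For MET18 and MET2 the 95% interval of the ratio included 1, at 0.304 to 1.74 and 0 to 1.30, so their direction is open. On the higher side in rpb4Δ by window signal, MET5, the other subunit of sulfite reductase, had 9 reads (3.57 RPM) in rpb4Δ and 13 reads (0.80 RPM) in ubp8Δ. SUL1, the other sulfate transporter, had 5 reads in rpb4Δ and 2 in ubp8Δ, MUP3, a low-affinity methionine permease, 3 in rpb4Δ and 11 in ubp8Δ, and STR3, a cystathionine β-lyase, 3 in rpb4Δ and 0 in ubp8Δ, too few for a fold. MET17, which joins sulfide to O-acetylhomoserine, had 0 window reads in both strains and, in its ORF, 0 reads in rpb4Δ and 1 in ubp8Δ. This gene is also known as MET15 and is deleted in some laboratory strains as an auxotrophic marker, as is LEU2, which had 0 reads in both strains. The genotypes name neither, and whether these genes are intact was not tested.

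The minimum of 20 reads equals 7.91 RPM in rpb4Δ and 1.23 RPM in ubp8Δ, so it removes genes low in the shallower rpb4Δ library more readily. With a minimum of 1.23 RPM on the mean of the strains instead, and values under 3 reads set to 3, 9 of 29 genes were at least 2-fold higher in rpb4Δ and 5 lower, with a median log2 ratio of 0.36, against 18.3% of 5243 ORFs higher and 18.4% lower with a median of 0.04. The genes gained at 2-fold were MET5 on the higher side and MET3, MET13 and MET22 on the lower side. MET5 and MUP3 were on the higher side in the window alone: with ORF reads included MET5 had 4.37 RPM in rpb4Δ and 23.9 RPM in ubp8Δ, 5.46-fold lower in rpb4Δ, and MUP3 had 1.98 RPM in rpb4Δ and 17.3 RPM in ubp8Δ, 8.71-fold lower. Relative to the median of all ORFs, 7 of the 24 genes were at least 2-fold higher and 3 lower, with SAM1 added to the lower side and MHT1 at a log2 ratio of 0.85. Of all ORFs past 2-fold, 52.0% were on the higher side under that scaling, against 62.5% with the deposited RPM. When the ORF was counted together with the window it was 44.3%, with 545 of 4248 ORFs higher and 684 lower. Of the 24 genes, 7 were then higher and 2 lower. This count kept the minimum on window reads, and so left out MET3, which was 2.32-fold lower in rpb4Δ by ORF and window together. That count turned the direction of MET4, MET7 and MET14 and moved the ratio of 4 genes, SAM2, MMP1, MET14 and MET32, by over 1.5 times. Another annotated gene on the same strand reaches into the window of 7 of the 24 genes, among them CYS3, MET1, SAM3 and MET16. Without these 7 genes 6 were higher and 2 lower. The share over all ORFs without such a neighbour was not determined.

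The weighted average position differed by at least 20 nt for 1 of the 24 genes, against 19.8% of all ORFs, and by under 10 nt for 18 (75% against 60.8%). The median difference, rpb4Δ minus ubp8Δ, was -3.04 nt over the 24 genes and -0.58 nt over all ORFs, with 16 genes more upstream in rpb4Δ and 8 more downstream. The count of shifted genes depended on the measure. It was 3 over positions 1 to 300, 5 with at least 1 window read, 3 by the weighted median position, where the median difference was 0 nt, and 9 of 18 without positions followed by a genomic A. Positions followed by an A held a median of 95.5% of the signal in rpb4Δ and 93.6% in ubp8Δ, so the last count rests on little signal. The 19.8% of all ORFs belongs to the main measure, and the share under the other measures was not determined.

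MET6 was the gene with the large shift. Its weighted average was 112 ± 8.6 nt in rpb4Δ and 186 ± 2.0 nt in ubp8Δ (standard error from the reads), a difference of -74.4 nt. It lies on the minus strand of chromosome V (chrV:339864-342167). The sites with the highest signal in each strain are shown because they lie 71 nt apart, with the site in capitals.
MET6, highest site in rpb4Δ, 154 nt after the stop codon (chrV:339705-339734, minus strand): tttattacaaagccataactcttgCatttt
MET6, highest site in ubp8Δ, 225 nt after the stop codon (chrV:339634-339663, minus strand): ataacgcattcaacattcgttttcTaaaat
The upstream site held 15 of 59 reads in rpb4Δ (25.4% of the signal, interval 15.0% to 38.4%) and 68 reads (5.68%) in ubp8Δ. The downstream site held 7 reads (11.9%) in rpb4Δ and 362 (30.2%, 27.6% to 32.9%) in ubp8Δ. A further site at 26 nt had 11 reads in rpb4Δ and 0 in ubp8Δ, and a site at 245 nt had 0 reads in rpb4Δ and 168 in ubp8Δ. Of the ubp8Δ signal, 49.3% was at sites that also had a read in rpb4Δ, against a median of 90.1% over the 24 genes. That share also depends on the number of rpb4Δ reads, and it was not particular to MET6. It was 46.3% for SAM2 (57 reads in rpb4Δ) and 87.3% for MET31 (59 reads). For MET28 (22 reads) and CBF1 (26 reads) it was 11.1% and 4.05%.

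The highest site lay at the same nucleotide for 10 of the 24 genes (41.7% against 60.5% of all ORFs), within 1 to 10 nt for 6 and over 10 nt apart for 8, against 26.1% of all ORFs. In rpb4Δ it was more upstream for MUP1, MET6 and MET7 and more downstream for SAM3, STR2, SAM2 and SUL2. CBF1 is counted among the 8 only through a tie, since its rpb4Δ reads were highest at 82 and at 342 nt alike and the site at 342 nt lies 2 nt from its ubp8Δ site. MET7 had its highest site at 44 nt in rpb4Δ (26.1% of the signal) and at 144 nt in ubp8Δ (44.4%), and each of these sites was also used in the other strain, at 20.6% for the distal site in rpb4Δ and 11.3% for the proximal site in ubp8Δ. SAM3 had its highest site at 62 nt in rpb4Δ (33.2%) and at 44 nt in ubp8Δ (35.0%), with each near-equal in the other strain. STR2 had its highest site in rpb4Δ at 106 nt, with 28.9% in rpb4Δ and 9.88% in ubp8Δ, and its highest site in ubp8Δ at 60 nt, with 9.43% in rpb4Δ and 19.2% in ubp8Δ.

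SAM2 had its highest site at 217 nt in rpb4Δ, with 17 of 57 reads, and at 180 nt in ubp8Δ, with 196 of 777 reads. Sites at 291 and 293 nt with 80 and 103 reads in ubp8Δ had 0 reads in rpb4Δ, and its weighted average was 198 nt in rpb4Δ and 215 nt in ubp8Δ. For SUL2 and CBF1 the highest sites rest on 9 and 10 reads in rpb4Δ. The SUL2 site was at 162 nt in rpb4Δ and 81 nt in ubp8Δ, and the CBF1 site was at 82 nt in rpb4Δ, level with another at 342 nt, and at 340 nt in ubp8Δ. None of the reads of the other strain ended at the same nucleotide as these rpb4Δ sites. For CBF1, however, 20 ubp8Δ reads (13.5% of the signal) ended at the next nucleotide, 83 nt. When sites within 10 nt of each other were merged, 5 of the 24 genes had highest sites over 10 nt apart. The share of all ORFs with merged sites was not determined, and the 26.1% given above is for unmerged sites.

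**Figure D3:**
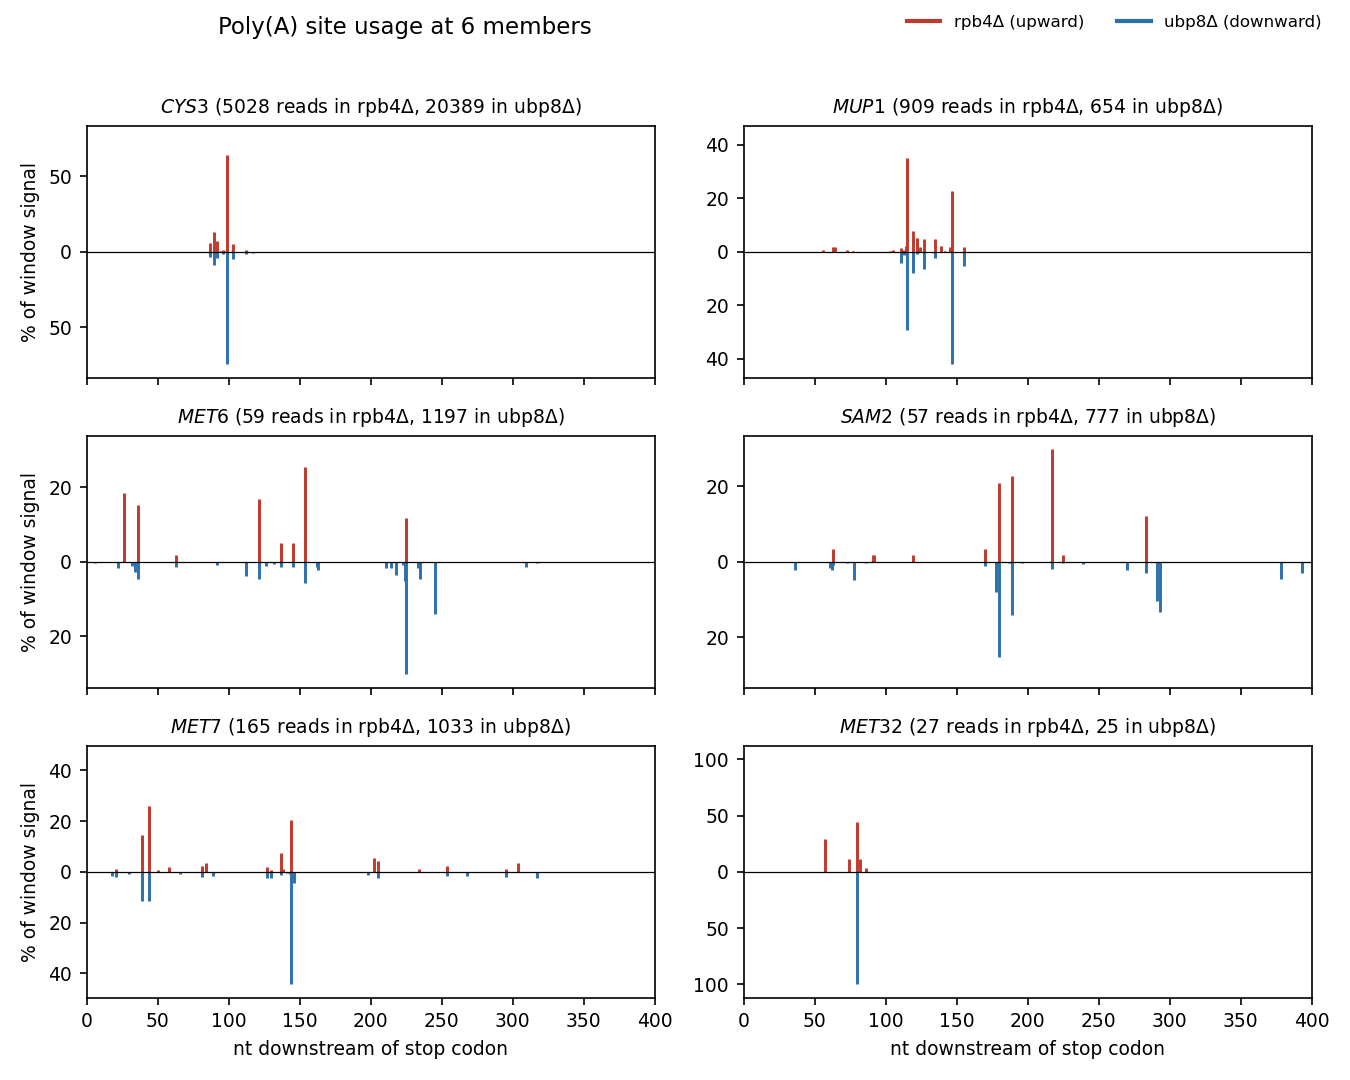
Percent of the window signal at each nucleotide downstream of the stop codon, upward for rpb4Δ and downward for ubp8Δ, at 6 genes with the window reads of each in the panel titles. The CYS3 profiles share the site at 99 nt, MUP1 and MET7 share sites in different proportion, and MET6 and SAM2 have sites in ubp8Δ with 0 reads in rpb4Δ, where they had 59 and 57 reads.

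Other genes kept a common site. CYS3 (chrI:130799-131983, plus strand) is shown as the strongest of them, again with the site in capitals.
CYS3, site 99 nt after the stop codon (chrI:132058-132087, plus strand): taaaatatccattaatactgtgctCaatca
This site held 64.1% of the signal in rpb4Δ (62.8% to 65.4%) and 74.4% in ubp8Δ (73.8% to 75.0%). Sites at 90 and 92 nt held 13.2% and 7.28% in rpb4Δ and 8.86% and 4.23% in ubp8Δ. The weighted average was 97.0 nt in rpb4Δ and 98.1 nt in ubp8Δ. SAM1 kept its highest site at 269 nt, with 28.7% in rpb4Δ and 38.5% in ubp8Δ, and had the most distal weighted average of the 24 genes in both strains. CYS4 kept its site at 132 nt, with 34.5% in rpb4Δ and 47.4% in ubp8Δ, and MET31 its site at 110 nt, with 39.0% in rpb4Δ and 63.4% in ubp8Δ, although in rpb4Δ the site at 112 nt had as many reads.

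The number of sites was smaller in the shallower library. The median was 8 sites per gene in rpb4Δ and 14 in ubp8Δ, against 13 in rpb4Δ and 19 in ubp8Δ over all ORFs. At equal reads per gene the medians were 8 in rpb4Δ and 10.7 in ubp8Δ (13 in rpb4Δ and 14.1 in ubp8Δ over all ORFs), with fewer sites in rpb4Δ for 15 of the 24 genes (62.5% against 66.2%). MUP1 and SAM3 stood on the other side. MUP1 had 23.8 sites in rpb4Δ and 10 in ubp8Δ at equal reads, and SAM3 had 35 in rpb4Δ and 20 in ubp8Δ. The highest site of a gene held a median of 34.5% of the signal in rpb4Δ and 38.0% in ubp8Δ, against 37.0% in rpb4Δ and 35.2% in ubp8Δ over all ORFs, which is the other order. The order also depended on how a site was defined: with sites within 10 nt merged, the median over the 24 genes was 85.7% in rpb4Δ and 79.4% in ubp8Δ, and with sites of at least 5% of the signal the median number of sites was 4 in both strains.

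Reads inside the ORF mark ends upstream of the stop codon, and whether these are poly(A) sites or A-rich stretches was not tested. They made up 4.03% of ORF plus window signal in rpb4Δ and 11.4% in ubp8Δ over the 25 genes with at least 20 such reads in both strains, and 5.05% in rpb4Δ and 10.3% in ubp8Δ over all ORFs. CYS3, with nearly all its reads in the window, sets much of this share, which without it was 7.84% in rpb4Δ and 19.3% in ubp8Δ. The median per gene was 3.58% in rpb4Δ and 20.6% in ubp8Δ, against 3.39% in rpb4Δ and 11.6% in ubp8Δ over all ORFs. The share was lower in rpb4Δ for 19 of the 25 genes (76% against 75.2%). In rpb4Δ 3 genes had over 20% of their signal in the ORF, against 21.5% of all ORFs, and in ubp8Δ 13 genes did, against 39.2% of all ORFs.

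The genes above 20% in rpb4Δ were MET3, SUL2 and CYS4. MET3 had 98.6% of its signal inside the ORF in rpb4Δ (92.5% to 100%, 71 ORF reads at 12 positions) and 96.1% in ubp8Δ (94.8% to 97.2%, 1033 ORF reads at 67 positions), so few of its ends lay past the stop codon in either strain. SUL2 had 80.0% in rpb4Δ (72.6% to 86.2%) and 79.1% in ubp8Δ (76.0% to 82.0%). CYS4 had 24.3% in rpb4Δ (19.3% to 29.8%) and 20.6% in ubp8Δ (18.9% to 22.4%). For these genes the intervals of the strains overlap.

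The others passed 20% in ubp8Δ alone. MMP1 had 15.4% in rpb4Δ (9.06% to 23.8%) and 65.6% in ubp8Δ (59.7% to 71.2%), and MUP1 had 3.72% in rpb4Δ (2.60% to 5.12%) and 29.4% in ubp8Δ (26.5% to 32.4%). In RPM the ORF signal of MUP1 was close, at 13.9 RPM in rpb4Δ and 16.7 RPM in ubp8Δ, so the strains differed mainly in the window. SAM2 had 16.2% in rpb4Δ (8.36% to 27.1%) and 55.1% in ubp8Δ (52.7% to 57.4%), and MET14 had 2.53% in rpb4Δ and 41.1% in ubp8Δ. MET32, MET4, STR2, MET16, MET7 and MET6 had 0% to 10.7% in rpb4Δ and 21.2% to 37.4% in ubp8Δ. Among genes under the window minimum, MET5 had 2 ORF reads (0.80 RPM) in rpb4Δ and 375 (23.1 RPM, at 32 positions) in ubp8Δ, and MUP3 had 2 (0.79 RPM) in rpb4Δ and 270 (16.6 RPM, at 38 positions) in ubp8Δ.

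**Figure D4:**
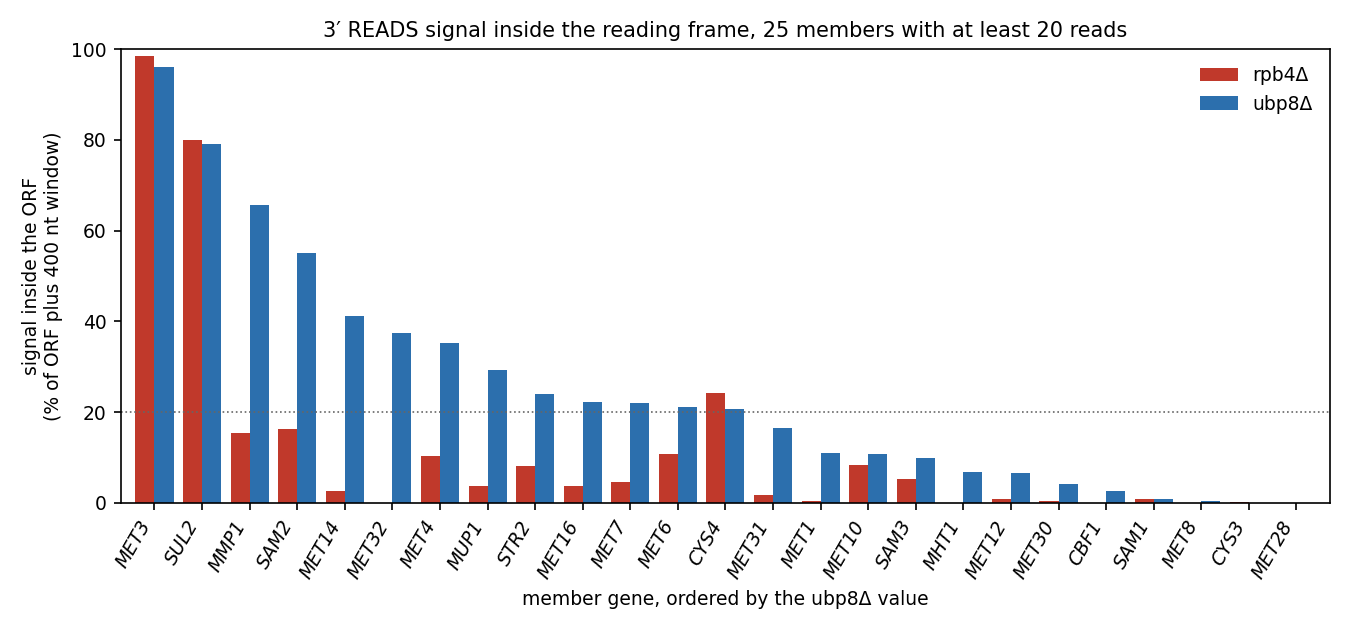
Percent of ORF plus window signal that lies inside the ORF, for the 25 genes with at least 20 such reads in both strains, ordered by the ubp8Δ value, with rpb4Δ bars left of ubp8Δ bars and a dotted line at 20%. MET3 and SUL2 are high in both strains, and MMP1 (15.4% in rpb4Δ, 65.6% in ubp8Δ), SAM2 and MET14 show the widest gaps.

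The promoters were searched for the binding sequences of the Met4 cofactors, from 250 bases before to 50 bases after the start codon in the RefSeq R64 genome. CACGTG, the sequence bound by Cbf1, which reads the same on both strands, was found in 9 of the 34 promoters (26.5%) and in 173 of 5797 ORF promoters (2.98%). AAACTGTGG, the sequence bound by Met31 and Met32, was searched on both strands and found in 6 of 34 (17.6%) and in 24 of 5797 (0.414%). The motifs share no bases of these promoters, and MET28 and MET30 held both. CACGTG was in CYS3, MET8, MET10, MET14, MET16, MET22, MET28, MET30 and CBF1, and AAACTGTGG in CYS4, MUP3, MET28, MET30, MHT1 and MMP1. A match is a sequence and not a measured binding site.

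Among the 8 genes at least 2-fold higher in rpb4Δ, 1 promoter held CACGTG and 2 held AAACTGTGG. Among the 16 others with enough reads, 7 held CACGTG and 3 held AAACTGTGG. The matches of MMP1 and MHT1 are the same bases. These genes lie head to head on chromosome XII, MHT1 on the minus strand (chrXII:16639-17613) and MMP1 on the plus strand (chrXII:17956-19707), and both were at least 2-fold higher in rpb4Δ. The shared element is shown from both genes, with the motif in capitals. MET10 held CACGTG at 2 places, -249 and -231, and the match at -231 is shown with it.
MMP1 promoter, motif from base -172 relative to the start codon (chrXII:17774-17803, plus strand): tactttcatgCCACAGTTTttacttttcca
MHT1 promoter, motif from base -179 relative to the start codon (chrXII:17773-17802, minus strand): ggaaaagtaaAAACTGTGGcatgaaagtac
MET10 promoter, motif from base -231 relative to the start codon (chrVI:213069-213098, plus strand): agcttatagaagCACGTGaccacaattcac
The promoters of MUP1, SAM3, MET1, MET31 and MET32, which were also at least 2-fold higher in rpb4Δ, held neither sequence in these 300 bases.

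Upstream of the highest poly(A) site, TATATA, the letters of the yeast efficiency element, was found within 60 bases on the sense strand for 13 of the 24 genes in rpb4Δ (54.2%) and 12 in ubp8Δ (50%), against 32.5% of all ORFs in rpb4Δ and 31.0% in ubp8Δ. AATAAA within 30 bases was found for 2 genes in each strain (8.33%), against 7.46% of all ORFs in rpb4Δ and 6.94% in ubp8Δ. The base after the highest site was an A for 87.5% of the genes in rpb4Δ and 91.7% in ubp8Δ, where the cleaved nucleotide can lie further downstream because terminal As are trimmed. None of the 569 sites listed for the set was at a genomic A, which follows from the definition of a site as a base that is not an A.

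Other genes of sulfur amino acid metabolism, a list of 25, did not lie on the higher side as a group. Of 19 with enough reads, 3 were at least 2-fold higher in rpb4Δ (15.8% against 19.0% of all ORFs). Lower were 4 (21.1% against 11.4%). The median log2 ratio was -0.22, against 0.15 over all ORFs, and the difference was not tested. OPT1, a transporter of glutathione, was 10.6-fold higher, with 40.4 RPM (102 reads) in rpb4Δ and 3.80 RPM (62 reads) in ubp8Δ. ADI1, of the methionine salvage pathway, was 2.77-fold higher and the thioredoxin TRX2 2.44-fold. On the lower side were SSU1, a sulfite exporter, with a log2 ratio of -1.73, SPE2, which uses S-adenosylmethionine for polyamines, at -1.54, the thioredoxin TRX1 at -1.28 and the sulfatase BDS1 at -1.05. The weighted average differed by at least 20 nt for 5 of the 19 genes, against 19.8% of all ORFs. The highest site differed by over 10 nt for 3, against 26.1% of all ORFs.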

How the data were processed

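Polyadenylation sites were measured by 3′ READS in 2 biological replicates each of rpb4Δ and ubp8Δ. The NET-seq samples of the series were not analysed here. Leading Ts of each read were removed by the authors, who mapped the next 17 bases to SacCer3 using bowtie, kept perfect matches to 1 place in the genome and pooled the replicates. The bowtie version is not given in the sources used here. The deposited window, highest-position and ORF values are in RPM, and those per nucleotide are deposited as percent of the highest one. Deposited percentages of ORF reads were not used and were recomputed from the RPM values. To recover reads, the smallest spacing shared by the highest-position values was taken as 1 read, and 4611 of 4611 values in rpb4Δ and 4917 of 4917 in ubp8Δ below 60 RPM were whole multiples of it within 0.1. This corresponds to 2529381 reads in rpb4Δ and 16276165 in ubp8Δ. That this spacing is 1 read rests on the values.

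A site was any nucleotide with a value above 0, and positions were averaged with their signal as weights. The tools were numpy 2.4.6, scipy 1.17.1, pandas 2.3.3, Biopython 1.88 (global alignment of the SAM genes) and matplotlib 3.10.9, under Python 3.11.15. Functions were tested on simulated data. All 34 genes had the same start and end in the R64 annotation, from whose genome bases were read, and 91.5% to 100% of the window positions of the 24 genes had 17 bases that occur once in the genome. Values are differences of 1 profile per strain without a test. The members, lists and thresholds were chosen with earlier results of these data known. Named were the 10 genes with the highest mean window RPM, those past 2-fold, those with an average shifted by at least 20 nt or a highest site moved by over 10 nt, those with over 20% of reads in the ORF, the SAM pair and those with few reads. The remaining genes with enough reads are given with their role. The list of other sulfur genes was written by hand. An exact binomial test of recovered reads, added after seeing the data, called 3214 of 4248 ORFs and 19 of 24 genes at an adjusted p of 0.05. It compares the libraries, not the strains. Alternatives were other scalings, read minimums, windows, site definitions and position measures, and leaving out genes with a neighbour, CYS3 or MET32.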

Additional observations from a re-analysis of the deposited data

How the results depend on the processing

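No paired analysis was possible because the replicates are pooled in the deposited profiles, and for the same reason no replicate could be left out. Of the main summaries, 61 values under other settings stayed near the reported one and 20 moved. The genes at least 2-fold lower in rpb4Δ numbered 4 with at least 1 window read, 1 over positions 1 to 300, where SAM2 was at a log2 ratio of -0.97, and 5 with the minimum on the mean of the strains, which was chosen after seeing the data. MHT1 had a log2 ratio of 0.85 relative to the median of all ORFs and 0.90 with ORF and window counted together. The genes shifted by at least 20 nt numbered 3 over positions 1 to 300, 5 with at least 1 window read, 3 by the weighted median position and 9 of 18 without positions followed by a genomic A, which hold most of the signal. The genes with highest sites over 10 nt apart numbered 5 when sites within 10 nt were merged. For these counts of shifted genes and of highest sites, the share of all ORFs under the same setting was not determined. The median number of sites was 4 in both strains with sites of at least 5% of the signal, so the lower number in rpb4Δ was lost, and 3 in rpb4Δ and 4.5 in ubp8Δ after merging. The share of the highest site, lower in rpb4Δ as reported, was higher there after merging, at 85.7% in rpb4Δ and 79.4% in ubp8Δ. The share of signal inside the ORF was 3.58% in rpb4Δ and 20.6% in ubp8Δ as a median over genes, 9.80% in rpb4Δ and 20.3% in ubp8Δ without genes with a same-strand neighbour, and 7.84% in rpb4Δ and 19.3% in ubp8Δ without CYS3, the last chosen after seeing the data. Without MET32, also chosen after seeing the data, 7 of 23 genes were at least 2-fold higher and the median log2 ratio was 0.65. Depth limits the values in rpb4Δ, where 10 of the 24 genes rest on under 60 reads.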
